A study of Mus musculus with 21 samples.

Results

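The regions described here are stretches of chromatin that carried called H3K36me3 in wild-type C2C12 cells after 5 days of differentiation in control medium and not at day 0 or day 1 of the same course. They are the bases on chromosomes 1 to 19 that lay inside peaks of both wild-type (WT) day 5 control lists and inside no peak of the 4 WT lists of day 0 and day 1 control, kept where an unbroken interval reached 1000 bases. There were 2025 such regions, 4.08 Mb in all or 0.166% of the 2460 Mb scanned, beside 936692 peaks on these chromosomes in all 20 lists together. C2C12 is a line of mouse myoblasts, cells that stop dividing and fuse into multinucleate myotubes when serum is withdrawn. H3K36me3 was profiled by chromatin immunoprecipitation and sequencing (ChIP-seq) in 5 conditions, namely day 0 (D0), day 1 in control medium (D1 CTL), day 1 under methionine restriction (D1 MR), day 5 in control medium (D5 CTL) and day 5 under methionine restriction (D5 MR). WT cells had 2 replicate libraries in each condition, and where no line is named the D1 MR and D5 MR lists are those of WT cells. The labels also name 2 lines as Setd2 knockouts (KO line 1 and KO line 2), each with 1 library per condition, so a value of a KO line in a condition has no replicate. The peak names inside the KO lists number the same libraries as replicates 1 and 2 of one KO group; the labels were followed here, and if the names are right, the 2 KO lines are replicates of one group. How the lines were made and whether a line is 1 clone are not given in the sources used here, and no file here measures SETD2 itself. Nothing in the labels says that the WT replicates came from separate cultures, so p-values measure the spread between these libraries, which may be technical.

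H3K36me3 is the trimethyl form of lysine 36 on histone H3. It is laid down behind elongating RNA polymerase II by the methyltransferase SETD2, and it accumulates over the bodies of transcribed genes, more towards their 3′ ends than at their promoters. The methyl groups come from S-adenosylmethionine, which cells make from methionine. In muscle differentiation the genes of the contractile apparatus, of calcium release and of the membrane complex that ties the cytoskeleton to the matrix are switched on after the myoblast leaves the cell cycle. The myogenic factors that switch them on are basic helix-loop-helix proteins that bind E-boxes, and the sequence CAGCTG is one form of E-box they bind.

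Promoters of host genes are shown first. The gained regions share day 5, but most host genes already held peaks elsewhere in the body at day 0 or day 1. A host gene is a protein-coding gene of at least 2 kb that holds at least 50% of a region. The sequences run from 250 bases before to 50 bases after the start site, from the RefSeq promoter table of the assembly GRCm38.p6, and CAGCTG, which reads the same on both strands, is in capitals. The 3 genes given with the motif code for a subunit of the muscle calcium channel (Cacna1s, chr1:136052561-136052860, plus strand), a protein of the ends of myofibrils (Nrap, chr19:56389989-56390288, minus strand) and a phosphoglucomutase-like protein of adhesion sites (Pgm5, chr19:24861793-24862092, minus strand). The promoters of Dysf, a membrane repair protein (chr6:84008348-84008647, plus strand), and Myom3, a protein of the sarcomeric M-band (chr4:135759465-135759764, plus strand), hold no match.
Cacna1s: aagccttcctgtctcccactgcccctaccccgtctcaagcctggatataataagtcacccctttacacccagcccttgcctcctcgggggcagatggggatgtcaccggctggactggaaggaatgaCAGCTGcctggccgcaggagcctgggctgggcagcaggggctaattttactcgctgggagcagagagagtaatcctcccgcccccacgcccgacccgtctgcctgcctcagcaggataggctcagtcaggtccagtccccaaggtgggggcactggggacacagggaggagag
Nrap: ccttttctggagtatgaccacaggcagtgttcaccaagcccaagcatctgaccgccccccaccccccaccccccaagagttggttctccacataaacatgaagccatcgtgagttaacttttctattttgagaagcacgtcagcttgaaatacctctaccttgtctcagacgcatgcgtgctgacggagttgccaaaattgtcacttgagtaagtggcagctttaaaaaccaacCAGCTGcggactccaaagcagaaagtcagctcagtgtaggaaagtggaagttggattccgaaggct
Pgm5: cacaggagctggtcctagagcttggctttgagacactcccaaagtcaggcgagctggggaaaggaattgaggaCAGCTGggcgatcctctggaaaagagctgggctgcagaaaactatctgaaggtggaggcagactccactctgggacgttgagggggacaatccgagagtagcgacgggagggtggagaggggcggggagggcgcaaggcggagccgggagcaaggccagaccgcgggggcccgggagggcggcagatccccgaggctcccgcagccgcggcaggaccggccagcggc
Dysf: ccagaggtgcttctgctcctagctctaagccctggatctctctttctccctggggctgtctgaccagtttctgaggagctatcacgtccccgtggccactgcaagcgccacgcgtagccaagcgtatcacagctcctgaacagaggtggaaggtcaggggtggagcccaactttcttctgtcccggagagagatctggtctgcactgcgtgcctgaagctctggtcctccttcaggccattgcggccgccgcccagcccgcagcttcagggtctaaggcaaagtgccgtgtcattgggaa
Myom3: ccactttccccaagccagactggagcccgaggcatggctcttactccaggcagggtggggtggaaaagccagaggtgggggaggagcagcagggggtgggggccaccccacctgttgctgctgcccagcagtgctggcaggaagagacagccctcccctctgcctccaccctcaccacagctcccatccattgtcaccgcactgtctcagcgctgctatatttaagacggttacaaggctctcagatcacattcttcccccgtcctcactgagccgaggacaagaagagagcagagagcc
CAGCTG was present in the promoters of 93 of 426 host genes with an entry in the table (21.8%), against 2305 of 14542 protein-coding genes (15.9%). Among the 75 hosts with an entry and at least 25% of the body gained, 25 had it (33.3%). The wider pattern CANNTG, of which CAGCTG is one case, was found in 68.1% of host promoters and 67.1% of all promoters, and in 77.3% of those 75 hosts. At least 2 copies of CANNTG were in 31.0% of host promoters, 33.7% of all promoters and 52% of those 75. Of the 20 hosts with most gained bases and an entry in the table, 4 held CAGCTG, namely Cacna1s, Pgm5, Rap1gap2 and Nrap. These shares describe letters in a window of 300 bases and do not say that a factor binds there. The promoters themselves were mostly outside the mark. In the D5 CTL lists, 97.2% and 97.9% of host promoters held no peak, against 98.3% and 98.5% of all promoters.

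The regions were short. Their median length was 1450 bases, with quartiles of 1177 and 2060 bases. Of the 2025 regions, 1941 lay in protein-coding genes (96.6% of the gained bases, while such genes make up 39.9% of the sequence scanned), 26 lay in genes of long non-coding RNAs alone and 58 lay in no gene of the table, which gives no exons or introns. An earlier peak touched one edge of 583 regions and both edges of 285, and 1157 were free-standing. The authors' fold enrichment at the middle of a region had a median of 3.20 and 3.16 in the D5 CTL replicates, against 2.83 and 2.91 over all peaks of those lists. The length limit cut a continuous distribution, since 34510 intervals with 12.7 Mb met the rule before it. The 173 regions of 1000 to 1049 bases, just inside the limit, were covered to 18.9% and 21.3% in the WT D5 MR lists, and the 215 intervals of 950 to 999 bases, just outside, to 20.6% and 22.9%.

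Along the host genes the gained bases leaned to the 3′ end, and the bases that were marked throughout did so more steeply. Constant regions, 22725 in number and 70.0 Mb in length, are intervals of at least 1000 bases inside peaks of all 6 WT lists of the rule. In the 426 hosts with a known strand, 5 equal parts of the gene body, in order from the 5′ end, held 10.8%, 16.4%, 19.5%, 24.9% and 28.4% of the gained bases. The same parts held 8.0%, 11.9%, 14%, 20.6% and 45.5% of the constant bases. Both sets come from the lists of the rule and cannot overlap, and a base marked earlier cannot be gained, so this contrast is in part set by the rule and carries no test.

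**Figure D1:**
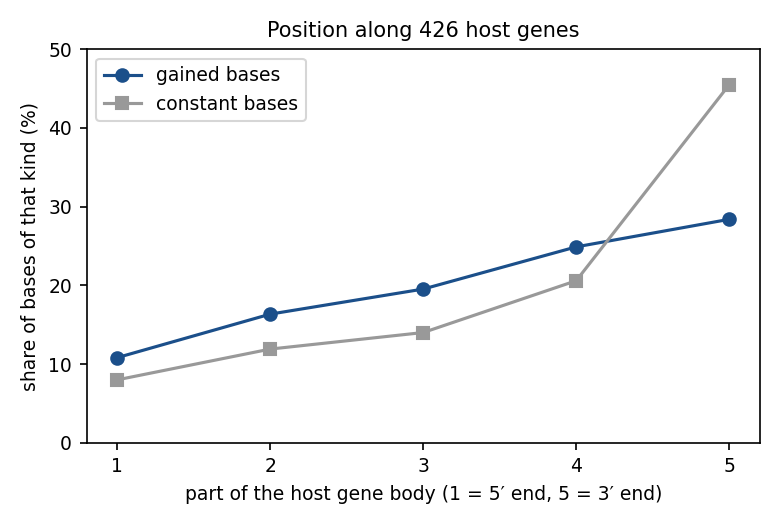
Share of gained and constant bases (percent, vertical axis) in 5 equal parts of the host gene body, numbered from the 5′ end (horizontal axis), over 426 host genes with a known strand. The part at the 3′ end held 28.4% of the gained bases and 45.5% of the constant ones.

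Whether the regions carried called H3K36me3 at day 5 in libraries that had no part in choosing them was asked in the other 14 lists. In WT cells under methionine restriction, peaks at day 5 covered part of the gained bases. The 100% of the D5 CTL lists is set by the rule and is no measured reference. The 2 WT D5 MR lists covered 29.9% and 31.0% of the gained bases, the 2 WT D1 MR lists 2.09% and 1.15%. KO line 1 covered 0.410% at D0, 0.294% at D1 CTL, 0% at D1 MR, 15.1% at D5 CTL and 8.26% at D5 MR. KO line 2 stayed at or under 0.168% in all 5 lists. In each of the 3 lines the day 5 lists stood above the earlier lists without overlap, at a very low level in KO line 2. Averaged over the 3 lines, day 5 cover exceeded earlier cover by 13.5 percentage points, and the exact permutation test within line gave p = 0.00167, two-sided and the smallest that 600 arrangements allow (adjusted p = 0.0133 over 8 tests). The direction was the same in 3 of 3 lines, with 6 day 5 libraries against 8 earlier ones. In the KO lines alone the difference was 5.78 points (exact permutation p = 0.01, the smallest of 100 arrangements, adjusted p = 0.0267). For each KO line the D0, D1 CTL and D1 MR lists served together as earlier libraries, and D5 CTL and D5 MR as day 5 libraries. Different conditions thus stood in for replicates in the KO lines, so these p-values do not measure replicate spread there. WT D5 MR against D1 MR differed by 28.8 points, or 18.3 points in lists shortened to 1 length (19.3% and 19.2% against 0.880% and 1.15%), but 2 against 2 libraries cannot give less than p = 0.333 in the exact permutation test, which is the value obtained. The KO value rested on KO line 1, since without it the difference was 0.0959 points (exact permutation p = 0.1, the smallest possible). That test was added after the data were seen. With peaks of a −log10 q of at least 3 alone, the KO difference was 2.84 points (exact permutation p = 0.1).

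A peak list grows with the sequencing depth and the yield of a library, and neither is known here, so the share of each list that fell in gained regions is given beside the cover. It was 0.947% and 0.960% in the WT D5 MR lists and 0.0675% and 0.0433% in the WT D1 MR lists. In the 2 D5 CTL lists that chose the regions it was 2.26% and 2.42%. KO line 1 had 0.0955%, 0.0874% and 0% in its D0, D1 CTL and D1 MR lists, then 0.844% at D5 CTL and 0.742% at D5 MR. KO line 2 had 0.0819%, 0.0554%, 0%, 0.123% and 0.0424% in the same order, all below the 0.166% that the regions make up of the scanned sequence. The mean difference between day 5 and earlier lists was 0.556 points over the 3 lines (exact permutation p = 0.005, adjusted p = 0.02), and 0.467 points without KO line 1 (exact permutation p = 0.0833). Within the KO lines it was 0.384 points (exact permutation p = 0.03, adjusted p = 0.06), which did not pass after adjustment. Lists differed widely in length, from 108 to 181 Mb in WT through 0.302 to 73.2 Mb in KO line 1 to 0.00782 to 7.06 Mb in KO line 2. The D1 MR lists of both KO lines were the shortest of their line, and without them the KO difference in cover was 5.71 points (exact permutation p = 0.0556).

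Constant regions show how far each list reached where WT cells were always marked. WT D1 MR lists covered 83.7% and 77.5% of the constant bases and WT D5 MR lists 86.9% and 87.7%. KO line 1 covered 16.6% at D0, 11% at D1 CTL, 0.164% at D1 MR, 53.1% at D5 CTL and 23.8% at D5 MR, so its lists were longer at day 5 in constant regions as well. Set against the constant regions of the same list, the gained regions reached 34.4% and 35.3% in WT D5 MR, 28.5% in KO line 1 at D5 CTL and 34.7% at D5 MR. The same ratio was 2.50% and 1.48% in WT D1 MR and 2.47% and 2.68% in KO line 1 at D0 and D1 CTL. KO line 2 covered at most 0.0625% of the constant bases, too little for such a ratio. In bulk chromatin a region marked in fewer cells cannot be told apart from a region with less mark per cell, and a region under the caller's threshold is not shown to lack the mark.

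**Figure D2:**
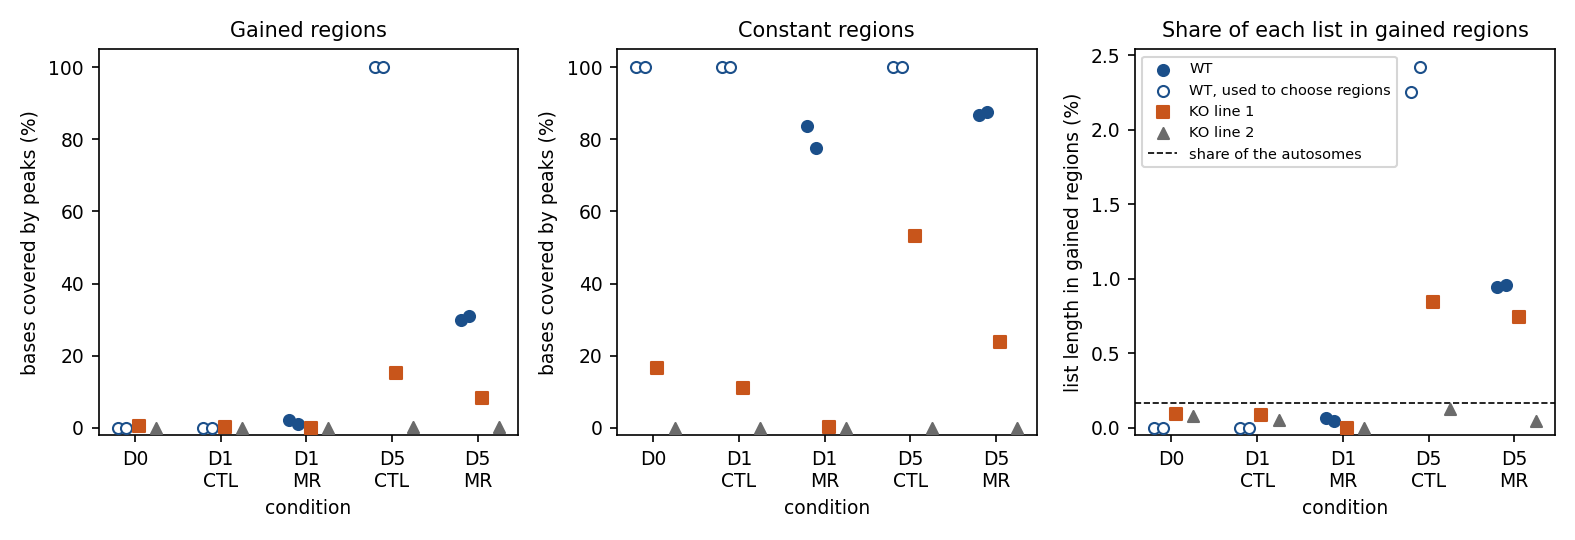
Percent of gained bases (left) and of constant bases (middle) covered by peaks, and percent of each list's own length inside gained regions (right), 1 point per library, by condition and line. Open circles are the 6 WT lists that chose the regions, and the dashed line is the 0.166% share of the scanned sequence. WT D5 MR points lie at 29.9% and 31.0% in the left panel, and KO line 2 stays below the dashed line on the right.

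WT against KO under restriction differed by 13.9 points of gained cover over D1 MR and D5 MR together, at the smallest p that 36 arrangements give (exact permutation p = 0.0556, adjusted p = 0.0889). This is a mean over 2 unlike days. Without the KO D1 MR libraries, which leaves D5 MR alone, the difference was 26.3 points (exact permutation p = 0.333). Within the KO lines, the restricted lists covered less than the control lists in 4 of 4 pairs of line and day, by 1.83 points on average, where the design cannot go below p = 0.125 (exact permutation, the value obtained). That average rested on KO line 1 at day 5, where the difference was -6.88 points, and without its D5 CTL or its D5 MR library it was -0.142 points. A comparison of WT D5 MR with WT D5 CTL would use the lists of the rule, whose cover is 100% by construction. Regions were therefore also chosen on 1 replicate number and measured in the other. Chosen on replicate 1 (6825 regions), they were covered in replicate 2 to 64.8% at D5 CTL, 22.1% at D5 MR, 7.40% at D0, 8.04% at D1 CTL and 3.36% at D1 MR. Chosen on replicate 2 (5512 regions), they were covered in replicate 1 to 76.7% at D5 CTL, 26.6% at D5 MR, 12.1% at D0, 7.72% at D1 CTL and 7.72% at D1 MR. Measured this way, D5 MR reached 34.1% and 34.7% of the D5 CTL cover.

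The regions differed among themselves in how much of them lay in peaks under restriction. Both D5 MR lists covered at least 50% of 320 regions (15.8%, against 70.7% of all 28836 intervals of at least 1000 bases taken from the WT lists of the rule), and 777 regions (38.4%, against 12.3% of all intervals) held no D5 MR peak at all. Both D5 MR lists stood above both D1 MR lists in 732 regions (36.1%, against 25.5% of all intervals) and below in 7 (background 7.09%). Neither D1 MR list held a peak in 1732 of the 2025 regions, where a lower value was not possible. Most of the 28836 intervals, 22725, were constant ones, so the direction in the gained regions was in large part set by the rule. The replicates picked out much the same regions, as 320 of the 440 (72.7%) covered to at least 50% in replicate 1 and of the 463 (69.1%) in replicate 2 were shared. Cover in D5 MR was higher in regions with stronger and longer signal. With the regions ranked by the authors' fold enrichment in D5 CTL replicate 1 and split into 4 classes of equal number, from lowest to highest, the mean cover of the 2 D5 MR lists was 12.3%, 20.7%, 26.3% and 48.4%. It was 25.2% in free-standing regions, 32.2% beside 1 earlier peak and 50.7% between 2 earlier peaks. In the 86 regions of 5000 bases or more it was 54.2%, against 21.9% in the 1084 regions under 1500 bases. The D1 MR lists had 1.40% and 0.829% in the highest class of fold enrichment and 2.37% and 1.48% in the lowest, so they did not share that order. They did share the order by flank, with 1.01% and 0.542% in free-standing regions, 3.16% and 1.53% beside 1 earlier peak and 4.70% and 3.10% between 2.

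**Figure D3:**
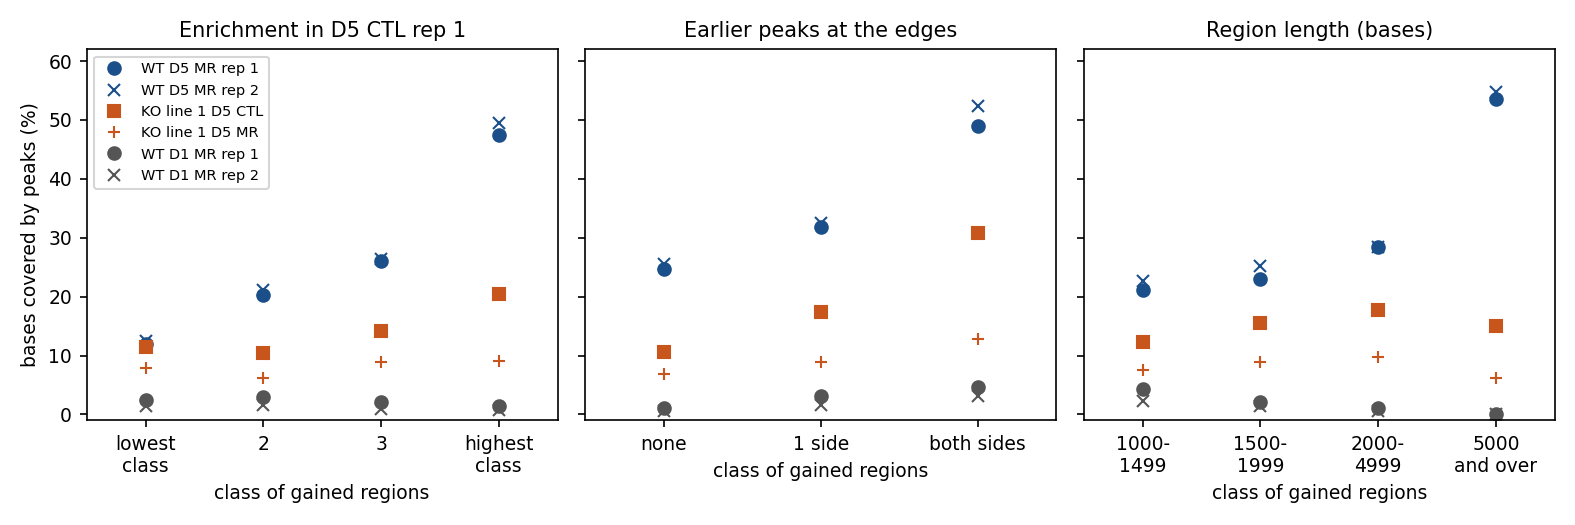
Percent of gained bases covered (vertical axis) in classes of regions by 4 classes of the authors' fold enrichment (left), by earlier peaks at the edges (middle) and by length (right), 1 point per library. In WT D5 MR the highest class lies at 47.4% and 49.5% and the lowest at 12% and 12.5%.

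KO line 1 and restricted WT cells shared part of the regions. At D5 CTL, KO line 1 covered 258 regions to at least 50%, and at D5 MR 138. Of the 258 and of the 320 held by both WT D5 MR lists, 56 were shared, which is 21.7% of the first and 17.5% of the second list, where 15.8% and 12.7% of all regions are in the other list. Within KO line 1, 104 regions were in both day 5 lists, 75.4% of those at D5 MR and 40.3% of those at D5 CTL. The libraries of a KO line have no replicate, so these overlaps carry no test. Cover in KO line 1 at D5 CTL followed the flanks, with 10.6% in free-standing regions, 17.4% beside 1 earlier peak and 30.8% between 2, and over the 4 length classes, from shortest to longest, it was 12.4%, 15.5%, 17.7% and 15%.

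The regions fell in 561 host genes of 18374 protein-coding genes tested (3.05%). Hosts were long genes, with a median of 67.0 kb against 21.4 kb over all coding genes. There were 264 hosts with a single region and 107 with 5 or more, and the 20 hosts with most gained bases held 33.2% of the gained length. At least 50% of the gene body was gained in 30 hosts. Most hosts held earlier peaks, for 375 had at least 5% of the body in a peak of 1 of the 4 earlier lists or more, 102 were under 5% in all 4 and 84 had no earlier peak. These classes differed in restricted cells. The median cover of the body in D5 MR was 26.5% in hosts with earlier cover of 5% or more, 3.99% in those under 5% and 1.51% in those with none, where D5 CTL had 60.2%, 21.1% and 33.1% and D1 MR 11.1%, 0.244% and 0%. Of the 84 hosts with no earlier peak, 0 were covered to 50% in both D5 MR lists, against 9.63% of all hosts and 16.5% of all coding genes, and 20 held no D5 MR peak. Bodies of 95 hosts overlap another coding gene, and a peak there counts for both.

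Gene cover in WT D5 MR against WT D1 MR was tested across all genes with limma, since the regions were not chosen on these 4 lists. Of 9426 genes with at least 5% mean cover in the 6 lists of the rule, 257 were higher at D5 MR (2.73%) and 211 lower (2.24%) at an adjusted p under 0.05. Among them were 506 of the 561 hosts, of which 106 were called higher and 0 lower (296 and 1 at an unadjusted p under 0.05, where 20.5% of all genes tested were higher). The median difference was 8.55 points over these hosts and 3.98 points over all genes tested. With the 4 lists shortened to 1 length by fold enrichment these medians were 3.92 and 0.902 points, 84 hosts were called higher and 1 lower, and over all genes the balance turned, with 260 higher and 310 lower. Of the genes named in what follows, Casq2, Chrd, Col1a1, Lmod2, Mymk, Prkag3, Pygm, Scn4a and Tnnt2 were called in the lists as deposited but neither in shortened lists nor with peaks of a −log10 q of at least 3 alone. Myom3 lost its call in shortened lists, Dclk1, Dysf and Myh1 lost theirs at that −log10 q, and Lrp4, Myh1 and Tnnt2 theirs without the filter on low cover. These calls rest on the 4 libraries together. With any one of them left out, limma called 0 hosts higher, or 1 without D1 MR replicate 2, and the smallest adjusted p was 0.0638 without D1 MR replicate 1, 0.0499 without D1 MR replicate 2, 0.0748 without D5 MR replicate 1 and 0.0748 without D5 MR replicate 2.

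**Figure D4:**
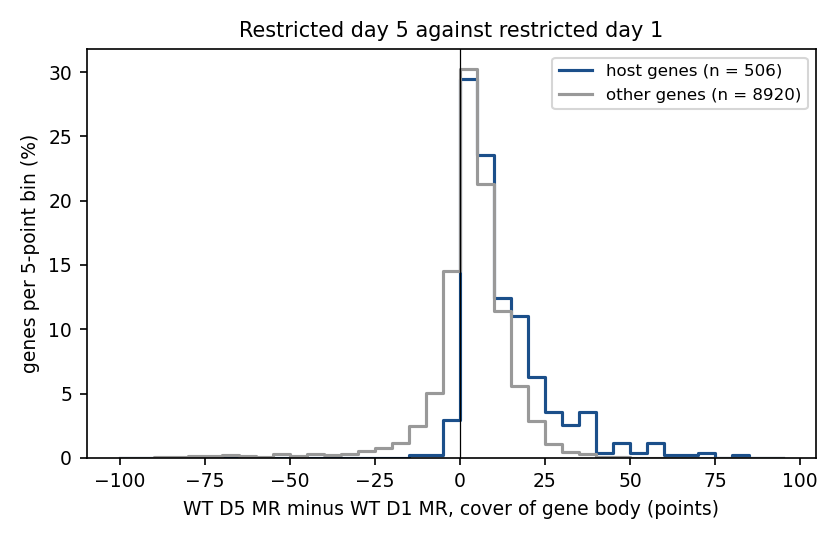
Distribution of the difference in gene body cover between WT D5 MR and WT D1 MR (percentage points, horizontal axis, bins of 5 points) for 506 host genes and 8920 other genes tested, as percent of each set per bin. The hosts extend further to the right, with a median of 8.55 points against 3.98 points over all genes.

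Genes of the sarcomere, the contractile unit of striated muscle, were many of the largest hosts. Of 53 sarcomere genes in the table, 30 were hosts, against 3.05% of all coding genes, with 596 kb or 14.6% of the gained bases, and limma called 16 of 45 tested higher at D5 MR, where 2.73% of all genes tested were (median difference 11.2 points against 3.98 over all genes). Of the other 23, 6 were covered to at least 50% on average in the earlier lists (Actn3, Des, Tnnc1, Tpm1, Tpm2 and Ttn), and 3 had no D5 CTL peak (Myl3, Nebl and Xirp2). Neb codes for nebulin, which runs along the thin filament. Its body (chr2:52136640-52338798) of 202 kb held 41 regions, and peaks covered 0.849% and 0.700% of it at D0, 8.94% and 9.80% at D1 CTL, 95.7% and 95.1% at D5 CTL, 0.831% and 0.256% at D1 MR and 81.2% and 84.5% at D5 MR. In KO line 1, Neb stood at 0% in the 3 earlier lists, 55.4% at D5 CTL and 14.4% at D5 MR. The D5 MR lists lay far above D1 MR without overlap, by 82.3 ± 2.77 points (SE, n = 2 and 2; limma adjusted p = 0.00972).

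The myomesins cross-link thick filaments in the M-band, and the 3 genes differed in timing and in KO line 1. Myom1 had no peak in the 4 earlier control lists, 68.0% and 58.2% at D5 CTL, 0% and 0.349% at D1 MR and 37.6% and 39.6% at D5 MR. Myom3 was at 0%, 0%, 3.23% and 0.772% in the earlier lists, 91.8% and 89.6% at D5 CTL, 0% at D1 MR in both and 48.8% and 47.8% at D5 MR. Myom2 was already at 35.1% and 27.7% at D1 CTL, reached 84.9% and 84.5% at D5 CTL, and had 2.84% and 0.475% at D1 MR and 68.2% and 71.0% at D5 MR. All 3 rose from D1 MR to D5 MR, by 38.4, 48.3 and 68.0 points (limma adjusted p = 0.0118, 0.00972 and 0.00972). KO line 1 covered Myom2 to 72.8% at D5 CTL and 37.2% at D5 MR, but Myom1 to 7.41% and 2.43% and Myom3 to 7.47% and 1.78%.

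Myosin heavy chains, the motor proteins of the thick filament, are close paralogs in one cluster on chromosome 11, where reads could be split between copies, so their values are uncertain. Myh3, the embryonic form, had 29.8% and 22.4% at D1 CTL, 96.5% and 89.6% at D5 CTL, 0% at D1 MR and 56.7% and 57.8% at D5 MR. Myh1, an adult fast form, had no earlier peak, 88.7% and 80.8% at D5 CTL and 55.0% and 45.1% at D5 MR. Myh4, the neighbouring fast form, had 43.4% and 45.3% at D5 CTL and 0% and 1.28% at D5 MR. Myh7, the slow form on chromosome 14, had 68.5% and 51.7% at D5 CTL and no peak in either D5 MR list. Thus Myh3 and Myh1 rose from D1 MR to D5 MR (limma adjusted p = 0.00972 and 0.0259) and Myh7 held no peak in any of the 4 restricted lists. Of the folding and assembly factors of myosin, Unc45b had 83.6% and 88.3% at D5 CTL and 45.5% and 53.1% at D5 MR, and Smyd1 48.2% and 41.8%, then 30.4% and 35.3%. Both had at most 0.889% at D1 MR and rose (limma adjusted p = 0.0216 and 0.0230), and neither held a peak in KO line 1 at day 5.

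Smaller sarcomere genes split in the same way. Lmod2, a leiomodin that lengthens thin filaments, had no earlier peak, 70.8% and 68.8% at D5 CTL and 34.6% and 36% at D5 MR, and 67.8% and 34.1% in the KO line 1 day 5 lists. Csrp3, the muscle LIM protein, had 75.7% and 70.6% at D5 CTL and 0% and 2.08% at D5 MR. Mybph, a myosin-binding protein, was covered to 99.6% and 97.8% at D5 CTL and to 0% and 3.94% at D5 MR, although it already had 33.4% and 49.2% at D1 CTL and 25.9% of its body overlaps Adora1. Lmod2 rose from D1 MR to D5 MR (limma adjusted p = 0.0119), but its difference was 0 points in lists shortened to 1 length and with peaks of a −log10 q of at least 3 alone, while Csrp3 and Mybph did not pass (limma adjusted p = 0.584 and 0.495). Tnnt2, cardiac-type troponin T, had 19.3% and 15.4% at D5 MR against 0% and 1.79% at D1 MR (limma adjusted p = 0.0451), but in lists shortened to 1 length the difference was -0.90 points and not called. Mybpc2 and Mylpf also held no peak in the restricted lists, with 41.1% and 29.9% and with 43.5% in both at D5 CTL.

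**Figure D5:**
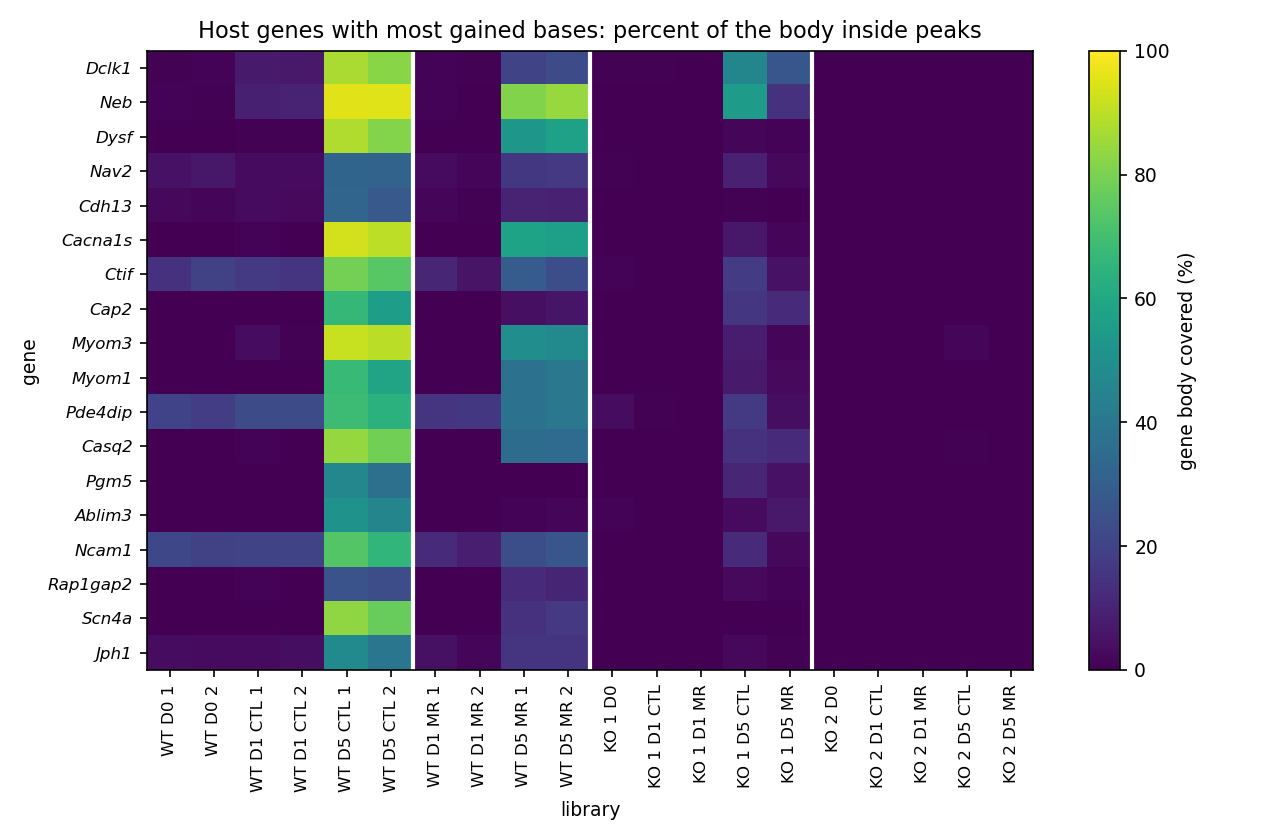
Percent of the gene body inside peaks (colour, 0 to 100%) for 18 of the 20 host genes with most gained bases (rows) in each of the 20 libraries (columns), WT control lists first, then WT restricted lists, KO line 1 and KO line 2. Neb has 81.2% and 84.5% in the WT D5 MR columns, Pgm5 is at 0% there, and of the genes shown Neb and Dclk1 have most cover in KO line 1 at D5 CTL.

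Excitation and calcium release gave 10 hosts of 26 listed genes, with 205 kb of gained bases, and 6 of 16 tested were called higher at D5 MR, against 2.73% of all genes tested (median difference 13.5 points against 3.98). Cacna1s (chr1:136052806-136119822), the voltage sensor in the transverse tubule, had 0%, 0%, 0.795% and 0% in the earlier lists, 93.1% and 90.2% at D5 CTL, 0% at D1 MR in both and 57.8% and 56.3% at D5 MR. Its difference was 57.1 ± 2.34 points (SE, n = 2 and 2; limma adjusted p = 0.00972), and KO line 1 had 6.29% and 1.86% at day 5. Ryr1, the calcium release channel of the sarcoplasmic reticulum that Cacna1s opens, was marked earlier, with 3.57% and 6.44% at D0, 65.3% and 62.4% at D1 CTL and 96.4% in both D5 CTL lists. Under restriction Ryr1 was at 2.64% and 4.58% at D1 MR and at 76.7% and 75.6% at D5 MR, a rise of 72.5 ± 2.61 points (SE, n = 2 and 2; limma adjusted p = 0.00972). The D1 MR lists of Ryr1 thus lay by the D0 lists, not by D1 CTL.

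The 2 calsequestrins, which bind calcium inside the reticulum, parted under restriction. Casq2 had 84.1% and 78.6% at D5 CTL and 35.5% and 35.1% at D5 MR, and Casq1 72.0% and 62.5%, then 0% in both. Neither had a peak at D1 MR, and Casq2 rose (limma adjusted p = 0.0111). Scn4a, the muscle sodium channel, had no earlier peak, 83.4% and 76.7% at D5 CTL, 14.3% and 16.6% at D5 MR and none in KO line 1. Srl, sarcalumenin, another calcium-binding protein of the reticulum, had 62.4% and 59.2% at D5 CTL and 18.4% and 18% at D5 MR, and more in KO line 1, with 34.1% and 24.5% at day 5. Both Scn4a and Srl rose from D1 MR to D5 MR (limma adjusted p = 0.0307 and 0.0196), from 0% in both D1 MR lists. The difference of Scn4a was 15.5 points, but 3.87 points in lists shortened to 1 length. With peaks of a −log10 q of at least 3 alone it was 2.48 points, and neither was called. Jph1, a junctophilin that holds the tubule and the reticulum together, had 15.2% in both D5 MR lists against 4.33% and 1.60% and just missed the threshold (limma adjusted p = 0.0503).

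In the complex of dystrophin and its membrane partners 10 of 12 listed genes were hosts, against 3.05% of all coding genes, and 4 of 10 tested were called higher, against 2.73% of all genes tested (median difference 10.3 points against 3.98). Dysf (chr6:84008361-84211060), dysferlin, acts in membrane repair. Its 203 kb held 34 regions, with 0%, 0.148%, 0.460% and 0.718% in the earlier lists, 88.2% and 81.5% at D5 CTL, 0% at D1 MR in both and 52.9% and 57.1% at D5 MR. The rise of 55.0 ± 2.72 points was called (SE, n = 2 and 2; limma adjusted p = 0.0111), and KO line 1 had 1.27% and 0.889%. Cav3, muscle caveolin, and Capn3, a muscle calpain, had little or no cover in D5 MR. Cav3 had 44.0% and 53.3% at D5 CTL and 0% in both D5 MR lists, and Capn3 60.5% and 55.6%, then 2.16% and 3.80%. Utrn, utrophin, was covered to between 30.4% and 39.4% in the earlier lists and to 38.2% and 38.7% at D5 MR, and its gained regions made up 1.23% of the body.

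The neuromuscular synapse gave 3 hosts of 12, against 3.05% of all coding genes, and 2 of 10 tested were called higher, against 2.73% of all genes tested (median difference 14.4 points). Musk, the receptor kinase that clusters acetylcholine receptors, had 6.58% and 2.70% at D1 MR and 44.5% and 43.2% at D5 MR, and Lrp4, its agrin-binding partner, 42.0% and 33.0%, then 75.8% and 76.5% (limma adjusted p = 0.0183 and 0.0348). The receptor subunits Chrna1, Chrnb1 and Chrnd were no hosts, as they were covered to at least 50% on average in the earlier lists. The list of myogenic factors, which holds transcription factors, their Eya coactivators and the secreted ligand Mstn, gave 1 host of 12. It was Mef2c, with no earlier peak, 36% and 29.8% at D5 CTL, 1.99% and 1.89% at D5 MR, no peak at D1 MR and none in KO line 1 (limma adjusted p = 0.247). None of the 10 list members tested was called, and their median difference was 0.970 points, below the 3.98 over all genes. Myod1, Six4 and Mef2d, among others, were covered to at least 50% earlier, and Myf5, Mef2b and Mstn had no D5 CTL peak. Of 9 fusion genes 2 were hosts, and 1 of 9 tested was called higher against the same 2.73% (median difference 3.69 points). Mymk, the fusion protein myomaker, rose from 0% at D1 MR in both lists to 23.3% and 25% at D5 MR (limma adjusted p = 0.0181), and Tmem182 had 65.3% and 55.5% at D5 CTL, 5.03% and 4.36% at D5 MR and 31.0% and 20.8% in KO line 1 at day 5.

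Energy metabolism gave 6 hosts of 16, with 2 of 10 tested called higher, against 2.73% of all genes tested (median difference 7.13 points). Pygm, muscle glycogen phosphorylase, had 89.6% and 85.2% at D5 CTL, 34.4% and 32.3% at D5 MR and no peak at D1 MR or in KO line 1 at day 5 (limma adjusted p = 0.0145). Ckm, muscle creatine kinase, had 79.0% and 60.6% at D5 CTL and 11.4% and 3.65% at D5 MR (limma adjusted p = 0.226). Prkag3, a regulatory subunit of the kinase AMPK, and Ip6k3, an inositol hexakisphosphate kinase, had over 70% of the body gained. Prkag3 rose from 0% at D1 MR in both lists to 39.0% and 37.5% at D5 MR and Ip6k3 from 0% to 26.4% and 27.1% (limma adjusted p = 0.0111 and 0.0149). The difference of Prkag3 was 0 points in lists shortened to 1 length and with peaks of a −log10 q of at least 3 alone, and that of Ip6k3 13.6 points, still called. In KO line 1 they parted, with 6.23% and 0% for Prkag3 and 55.8% and 67.5% for Ip6k3 at D5 CTL and D5 MR. The lists of cell cycle genes (23) and extracellular matrix genes (14) gave 0 hosts and 1 host, Col1a1. All 23 cell cycle genes were covered to at least 50% on average in the earlier lists, and from D1 MR to D5 MR limma called 12 lower and 1 higher. Over the 7 muscle lists together, 31 of 110 genes tested were called higher and 0 lower by limma, against 2.73% and 2.24% of all genes tested. At an unadjusted p under 0.05, 56 were higher and 1 lower, where 20.5% of all genes tested were higher.

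Host status and D5 CTL cover come from the lists of the rule, so cell type markers do not test the name of the part. The median cover of the 8 myotube markers was 93.1% at D5 CTL, 45.9% at D5 MR and 0.272% at D1 MR. Of these 8, 6 were hosts (Ckm, Myh3, Neb, Tnnt3, Mylpf and Ryr1). Of the other 2, Ttn was covered to at least 50% earlier. No marker of myoblasts, adipocytes, osteoblasts, neurons or blood was a host. Among the myoblast markers, Ccnb1, Cdh15, Mki67 and Myod1 were covered to at least 50% on average in the earlier lists, and Myf5 had no D5 CTL peak. The median cover of the adipocyte, osteoblast, neuron and blood lists was 0% at D5 CTL, D5 MR and D1 MR, although Lpl, Pparg and Runx2 held some D5 CTL peak. The median of the 5 myoblast markers was 45.1% at D5 CTL, 0% at D5 MR and 39.7% at D1 MR, but the list did not move together. Limma called 1 of the 5 lower and 0 higher from D1 MR to D5 MR (median difference 0 points), Cdh15 stood at 74.4% and 68.3% at D1 MR and at 73.2% and 74.3% at D5 MR, and Myod1 and Myf5 held no peak in the 4 restricted lists. How many cells had fused in each library is not given in the labels, so the part of fusion in these values was not tested.

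Large hosts outside the muscle lists also ranged widely at D5 MR. Dclk1 (chr3:55242303-55539068), a microtubule-binding kinase, held the most gained bases, 169 kb in 69 regions. Peaks covered 0.728% and 0.849% of Dclk1 at D0, 7.05% and 6.76% at D1 CTL, 87.2% and 82.4% at D5 CTL, 1.12% and 0.402% at D1 MR, 20.4% and 22.8% at D5 MR, and 45.8% and 26.8% in KO line 1 at D5 CTL and D5 MR. Dclk1 rose from D1 MR to D5 MR by 20.8 ± 1.69 points (SE, n = 2 and 2; limma adjusted p = 0.0240), and it is one of the hosts with more cover in KO line 1 than in restricted WT cells. Nav2, a cytoskeletal navigator protein of 651 kb, had 32.1% and 31.7% at D5 CTL and 16% and 16.4% at D5 MR (limma adjusted p = 0.0310). Cdh13, a cadherin, had 9.48% and 9.21% at D5 MR against 1.75% and 0.714% at D1 MR and missed the threshold (limma adjusted p = 0.0521). Pgm5 had 46.5% and 37.0% at D5 CTL, no peak in any restricted WT list and 10.6% and 5.01% in KO line 1. Cap2, an actin-binding protein, had 66.7% and 56.2% at D5 CTL, 4.28% and 5.76% at D5 MR and 15.6% and 12.3% in KO line 1. Chrd, a secreted antagonist of bone morphogenetic proteins, had 74.1% and 69.2% at D5 CTL, 61.3% and 65.0% at D5 MR, none at D1 MR and none in KO line 1, with 28.2% of its body inside Thpo (limma adjusted p = 0.00972).

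By the mean of the D5 CTL and D5 MR lists, the 5 hosts with most cover in KO line 1 at day 5 were Bnip3, Ndrg1, Mmp2, Egln3 and Nfix. Bnip3, a mitochondrial protein of mitophagy, stood there at 99.7% (D5 CTL) and 99.3% (D5 MR), against 0% at D0 and 2.43% at D1 CTL of that line. WT cells had 30.9% and 18.8% at D0, 85.8% and 88.9% at D5 CTL, 28.4% in both D1 MR lists and 32.9% and 32.4% at D5 MR, so at D5 MR WT cells were low where KO line 1 was high, while at D1 MR KO line 1 was at 0%. Egln3, a prolyl hydroxylase that acts on hypoxia-inducible factors, had 93.5% and 91.2% in KO line 1 at day 5, 0% earlier, and 20.8% and 23.6% in WT D5 MR. Mmp2, a matrix metalloprotease, had 96.0% and 96.3%, but was at 61.0% and 73.1% in KO line 1 at D0 and D1 CTL already, where WT D0 had 1.52% and 5.54%. Nfix, a transcription factor, had 86.8% and 90.7% after 61.5% and 57.4%, and Ndrg1, a stress-responsive protein, 98.8% and 98.2% after 18.2% and 4.19%. Of the 561 hosts, 25 (4.46%) were covered to at least 50% in both KO line 1 day 5 lists, against 601 of 18374 coding genes (3.27%), and 4 of the 25 also in both WT D5 MR lists. In KO line 2 no named gene of 85 was covered beyond 3.95% in any list.

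Genes of small RNAs lay inside regions as well, and the mature forms found in the table, the 5p arm alone for Mir1a-1 and both arms for Mir128-2, are given because the regions around these genes differ in cover at D5 MR. Mir1a-1 (chr2:180389048-180389124) and Mir133a-2 (chr2:180398379-180398482) lie in Mir1a-1hg, a long non-coding host transcript, and their families are known for high levels in muscle. Mir128-2 (chr9:112118636-112118711) lies in Arpp21. Sequences are from the RefSeq miRNA table of GRCm38.p6, with the seed, bases 2 to 8, in capitals.
mmu-miR-1a-1-5p: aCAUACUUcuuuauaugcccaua
mmu-miR-128-3p: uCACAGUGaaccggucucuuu
mmu-miR-128-2-5p: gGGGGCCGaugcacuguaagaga
No 2 of these 3 share a seed. Mir1a-1hg held 3 regions with 11.8 kb, and peaks covered 78.4% and 78.5% of its 16.2 kb at D5 CTL and 0% in both D5 MR lists and in KO line 1 at D5 CTL. The region around Mir128-2, chr9:112116101-112119693, was covered to 68.5% and 65.4% at D5 MR and to 18.5% in KO line 1 at D5 CTL. Mir6923 in Myh3, Mir7226 in Ptprf and Mir6929 in Ptges3l also lay in regions. H3K36me3 over these genes does not measure their small RNAs.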

How the data were processed

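The authors deposited 1 peak list per H3K36me3 library, 20 in all, in a 9-column broad-peak layout. The input library was not used here. The build is GRCm38 per the submitters' processing notes. The aligner, peak caller and its control are not given in the sources used here, and values were not scaled by the Drosophila chromatin added per the labels' protocols. The score of each peak was deposited by the authors and not used. The fold enrichment, a ratio deposited by the authors with each peak, ranked regions or peaks within a list only. The −log10 p and −log10 q are the authors' too, and the lowest deposited −log10 q was 1.00. Lists hold no read counts, so depth is unknown and no counting interval is given.

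Overlapping peaks were merged and intersected at single-base resolution. Gene bodies came from the RefSeq table of GRCm38.p6. Cover is the percent of bases inside peaks. Library values were compared with exact permutation tests, two-sided, labels permuted within line or condition, with Benjamini-Hochberg adjustment over 8 tests. Gene cover was tested with limma 3.58.1 (trend and robust) in R 4.3.3, adjusted over all genes tested. Python 3.11.15, numpy 2.4.6 and pandas 2.3.3 did the rest. Both steps were checked on simulated data. In the simulated WT D5 MR against WT D1 MR comparison over 9426 genes, limma recovered 0% of 200 genes raised by 20 points and 41% of 200 raised by 40 points, so a gene that was not called may still differ. The members, gene lists and tests were chosen with earlier results of these data known.

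Named genes were the 20 hosts with most gained bases, the 10 of at least 5 kb with most of the body gained, the 5 called hosts with the largest difference in each direction, the 5 with most gained bases at 0 in both D5 MR lists, the 5 highest in KO line 1 at day 5 and host members of the lists. Some of them are not reported here. Replicate numbers were not taken as pairs of WT libraries in the main tests. The correlation of same-numbered deviations was -0.437 to 0.0719 over 10 pairs, and 2 replicates per condition are too few to settle a pairing. Alternatives covered the length limit, a −log10 q of at least 3, shortened lists, host and filter rules, and each library left out.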

Additional observations from a re-analysis of the deposited data

How the results depend on the processing

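Depth is unknown, so a short list may be a shallow one, and 2 replicates limit every WT comparison. With limits of 500, 2000 and 5000 bases there were 6875, 545 and 86 regions (7.39, 2.09 and 0.766 Mb). Peaks with a −log10 q of at least 3 gave 6.99 Mb, and D0 as the only earlier lists 6.32 Mb. Leaving out 1 WT list of the rule gave 2270 to 4867 regions and 4.51 to 9.07 Mb. Cover of D5 MR was 22.1% and 26.6% in regions chosen on the other replicate. KO day 5 cover exceeded earlier cover by 2.84 points at −log10 q of at least 3 (share of list 0.782 points, exact permutation p = 0.1 for both), and by 5.71 points (share 0.358) without both D1 MR libraries. Chosen after seeing the data, leaving out KO line 2 gave 11.5 and 0.732 points, and leaving out KO line 1 gave 0.0959 and 0.0369 points, with 0.467 points of share over WT and KO line 2 (exact permutation p = 0.0833). With each KO library left out in turn, the KO share difference was 0.359 to 0.410 points. Among genes, the 10 WT libraries called 777 higher, 347 lower and 179 hosts higher (101 shared with the 106). The replicate block, which takes replicate numbers as pairs without a statement that they are, called 618 genes and 156 hosts higher. A −log10 q of at least 3 called 469 higher and 97 lower. Leaving out 1 of 4 libraries left 0 to 1 gene higher, 0 to 36 lower and 0 to 1 host higher, and 1682 genes without D5 MR replicate 1 and 3466 without D1 MR replicate 1 had an unadjusted p under 0.05. With fewer libraries the lone one is assumed to vary like its counterpart. Lists shortened to 108 Mb reversed Tnnt2 (-0.90 points). The replicate block gave p = 0.5, the smallest of 4 arrangements, in the exact permutation test of WT D5 MR against D1 MR cover.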

Other observations

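Several further hosts with at least 50% cover in both KO line 1 day 5 lists were chosen after their values were seen and are given as values only. Hk2, hexokinase of the first step of glycolysis, stood at 88.7% in KO line 1 at D5 CTL after 2.30% at D0, and Slc16a3, a lactate transporter, at 87.2% after 0%. Ero1a, an oxidase of the endoplasmic reticulum, stood at 91.5% after 0.772%. Eno2, an enolase, was at 71.1% and 70.8% in the KO line 1 D5 CTL and D5 MR lists and at 0% in all 4 WT restricted lists, with 87.5% and 81.4% in WT D5 CTL. In the WT D5 MR lists Hk2 had 36.6% and 33.2%, Slc16a3 24.1% and 16.8%, and Ero1a 36.6% and 45.8%. Of the 25 such hosts, 12 were under 5% in KO line 1 at both D0 and D1 CTL.

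Regions in non-coding genes alone had little cover under restriction, with a mean of 2.03% over the 26 in the WT D5 MR lists against 31.2% in coding genes and 14.5% in the 58 outside genes. Mir1a-1hg, with 11.8 kb gained, and Gm34319, with 5.38 kb, held no peak in either WT D5 MR list, and KO line 1 at D5 MR covered 2.18% and 4.05% of their bodies.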
